A study of Arabidopsis thaliana with 12 samples.

Results

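Transcript levels of 39 Arabidopsis thaliana genes differed in opposite directions between plants given abscisic acid (ABA) and controls, one way in guard cells and the other way in whole leaves. Of these, 3 had higher transcript levels with ABA in guard cell preparations and lower levels in wild-type leaves, and 36 were lower in guard cells and higher in leaves. They were picked from 36796 listed loci, 15088 of which reached a mean of 5 CPM (the reads of a locus divided by all reads counted in that library, times 1e6) in an ABA or control group of both wild-type materials. For each material, the mean CPM of the ABA libraries plus 1 was divided by the mean CPM of the control libraries plus 1. A gene was kept where this ratio was at least 1.5 in one material and at most 0.67 in the other. The guard cell and wild-type leaf values below therefore describe how the genes were chosen, and no test was made on them. The response of mutant leaves compared libraries that took no part in the choice, and it was tested. The scaling and the spread in that test were estimated from all 12 libraries, those of the choice included.

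RNA was sequenced in 12 libraries, 2 biological replicates in each of 6 groups, all on a Col-0 background. The ABA groups were wild-type guard cells, abf1/2/3/4 mutant leaves and wild-type leaves from rosettes sprayed with 50 µM ABA, and the control groups were the same 3 materials sprayed with the ethanol vehicle. RNA was taken after 4 h from plants of 5 to 6 weeks. The guard cell material consisted of isolated epidermal fragments, so it could hold other cells, and it was extracted with another RNA kit than the leaves; cell type, isolation and kit cannot be told apart. The mutant carries alleles of ABF1, ABF2, ABF3 and ABF4 that the labels do not describe further.

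ABA is the hormone of water shortage. Its receptors inhibit protein phosphatases and so release SnRK2 kinases, which activate ion channels of the guard cell membrane and phosphorylate transcription factors of the ABF group. Guard cells then lose solutes and shrink, which closes the stomatal pore. ABF proteins are basic leucine zipper factors that bind the ABA-responsive element, whose core is ACGTG. In leaves, these factors switch on genes for proteins that protect dehydrating cells, while most leaf RNA comes from mesophyll and not from guard cells.

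The stretches of 250 bases before the gene start of 4 genes from the larger set are shown because they carry this core, while the genes differed in mutant leaves. MGL and TPPG were not higher with ABA in mutant leaves, and AT4G24480 and PRP2 were. The sequences are the RefSeq assembly TAIR10.1, 5′ to 3′ along each gene's strand, at chr1:24028580-24028829 (plus) for MGL, chr4:11896481-11896730 (minus) for TPPG, chr4:12649735-12649984 (plus) for AT4G24480 and chr2:9062094-9062343 (minus) for PRP2. Capitals mark ACGTG or its reverse complement CACGT, and CACGTG is a match on both strands whose copies overlap.
MGL: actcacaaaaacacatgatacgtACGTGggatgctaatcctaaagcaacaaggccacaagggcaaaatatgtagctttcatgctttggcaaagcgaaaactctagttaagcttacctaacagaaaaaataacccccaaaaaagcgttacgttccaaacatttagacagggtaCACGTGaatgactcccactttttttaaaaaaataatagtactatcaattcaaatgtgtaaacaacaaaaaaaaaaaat
TPPG: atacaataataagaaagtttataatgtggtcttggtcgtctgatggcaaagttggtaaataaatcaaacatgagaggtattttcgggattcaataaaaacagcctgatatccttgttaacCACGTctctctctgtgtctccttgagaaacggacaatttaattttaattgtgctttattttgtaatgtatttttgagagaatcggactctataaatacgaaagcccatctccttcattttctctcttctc
AT4G24480: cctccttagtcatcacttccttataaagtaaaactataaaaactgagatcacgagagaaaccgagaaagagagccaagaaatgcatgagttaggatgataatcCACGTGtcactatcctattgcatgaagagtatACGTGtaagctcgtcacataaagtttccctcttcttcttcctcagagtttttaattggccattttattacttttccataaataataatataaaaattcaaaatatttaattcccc
PRP2: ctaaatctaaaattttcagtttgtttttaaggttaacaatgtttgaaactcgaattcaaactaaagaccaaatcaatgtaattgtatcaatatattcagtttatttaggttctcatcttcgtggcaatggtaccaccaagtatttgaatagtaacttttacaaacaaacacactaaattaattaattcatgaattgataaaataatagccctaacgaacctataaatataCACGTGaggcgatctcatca

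Counting from the base before the gene start as -1, the matches began at -227, -78 and -77 in MGL, at -130 in TPPG, at -147, -146 and -115 in AT4G24480 and at -20 and -19 in PRP2. Of the 36 genes lower in guard cells and higher in leaves, 35 code for proteins, and 10 of these (28.6%) held ACGTG on either strand within the 250 bases. The share was 37.9% of 2186 protein-coding loci whose ratio was at least 1.5 in wild-type leaves, whatever they did in guard cells, and 22.9% of all 27443 protein-coding loci. The full palindrome CACGTG stood before 17.1% of the 35 genes, 15.9% of the leaf-induced loci and 6.49% of all. For TTGAC, the core of the W-box bound by WRKY factors, the shares were 48.6%, 46.8% and 44.9%, again counting both strands. Among the 3 genes of the other direction, only AT1G66830 held ACGTG. A match is a run of letters and not a measured binding site.

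Libraries held 25294558 to 47116819 counts. Reads over the 4 targeted genes were lower in mutant leaves: with ABA, ABF3 had 12.3 and 12.8 CPM in mutant leaves against 468 and 479 CPM in wild-type leaves, and ABF4 had 2.59 and 2.28 CPM against 73.8 and 75.7 CPM. ABF1 kept 44.6 and 44.8 CPM in mutant leaves with ABA, against 106 and 119 CPM in wild-type leaves, and ABF2 had 10.7 and 11.2 CPM against 121 and 127 CPM. Replicate 2 of the mutant control stood apart from replicate 1: 251 of 16959 loci differed over 2-fold between them, against 3 to 40 loci in the other 5 groups. The 12 genes of a guard cell marker list summed to 1500 and 1444 CPM with ABA and 2442 and 2312 CPM without it in guard cell preparations, and to 861 and 1018 CPM with ABA and 451 and 406 CPM without it in wild-type leaves. This list includes MPK12 and GORK, which belong to the larger set. FAMA, a master regulator of guard cell identity, had 188 and 189 CPM in guard cell controls against 12.9 and 17.61 CPM in leaf controls. The 17 mesophyll genes summed to 50090 to 54850 CPM in guard cell preparations, against 69830 to 105000 CPM in wild-type leaves. The 14 vascular genes summed to 10560 to 11650 CPM in guard cell preparations and 1616 to 1737 CPM in wild-type leaves, and SUC2, the phloem sucrose carrier, had 3127 to 3452 CPM against 319 to 351 CPM. In bulk RNA of this kind, fewer cells of a type and less RNA per cell cannot be told apart.

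**Figure D1:**
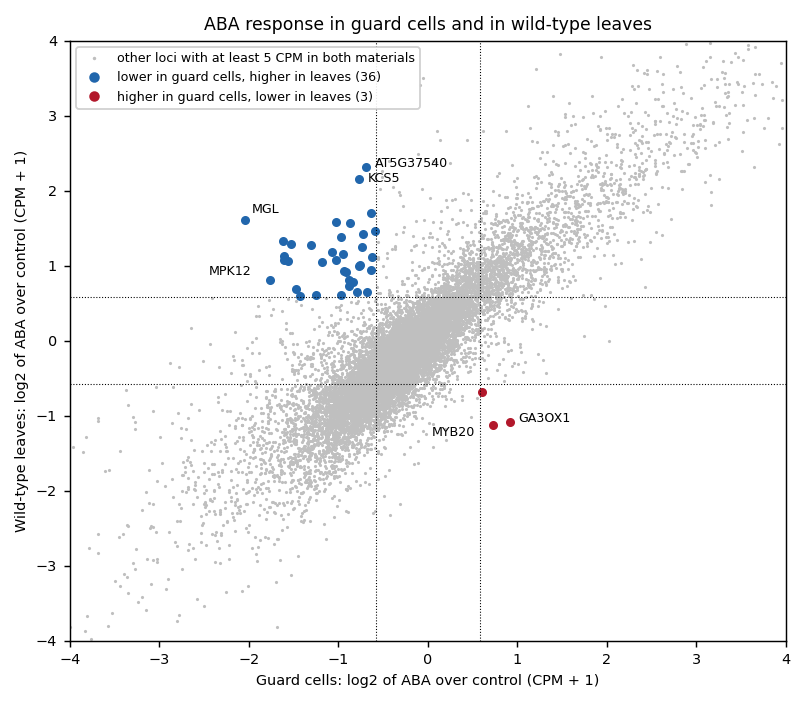
Each point is a locus with a mean of at least 5 CPM in both wild-type materials; the horizontal axis is its log2 ratio of ABA over control in guard cells, the vertical axis the same ratio in wild-type leaves, and dotted lines mark the ratios of 1.5 and 0.67. The 36 blue genes lie in the upper left and the 3 red genes in the lower right, away from the diagonal that holds most loci; 154 loci lie outside the plotted range of 4 log2 units.

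Most strong ABA responses ran the same way in both materials. Of the 15088 loci, 1652 had a ratio of at least 1.5 in both and 3086 a ratio of at most 0.67 in both. In guard cells, 12.1% of loci reached 1.5 and 28.1% were at or under 0.67, and in wild-type leaves the shares were 15.3% and 26.1%. Dividing by column totals put the median log2 ratio of these loci at -0.28 in guard cells, -0.11 in mutant leaves and -0.16 in wild-type leaves, and trimmed-mean (TMM) scaling put it at 0.01, 0.04 and -0.03. All 39 genes kept both directions under TMM scaling and under the relative log expression (RLE) scaling, but only 23 of the 36 and 2 of the 3 stayed past the ratio limits under either. In all 39, no ABA library of guard cells or of wild-type leaves overlapped the control libraries. Loci with no overlap made up 24.5% (higher) and 61.7% (lower) of all tested loci in guard cells and 29.1% (higher) and 52.6% (lower) in wild-type leaves.

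In mutant leaves, whose response was tested, 18.9% of the 22341 loci tested were called higher with ABA and 15.5% lower (edgeR's quasi-likelihood test, adjusted p under 0.05). In the same fit 29.0% were called higher and 28.5% lower in guard cells, and 27.5% higher and 33.7% lower in wild-type leaves. The fold changes of this test use TMM scaling, while ratios and CPM use column totals.

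The genes that were higher with ABA in guard cells and lower in leaves were GA3OX1, MYB20 and AT1G66830. GA3OX1 (AT1G15550, chr1:5344388-5346342) encodes gibberellin 3-oxidase, which makes the active form of the growth hormone gibberellin. It had 9.92 and 11.7 CPM with ABA against 5.70 and 4.86 CPM without it in guard cells, a ratio of 1.88. In wild-type leaves it had 4.51 and 4.65 CPM with ABA against 9.98 and 11.7 CPM without it, a ratio of 0.471. The guard cell libraries with ABA thus had the level of the leaf controls, and the leaf libraries with ABA that of the guard cell controls. In abf1/2/3/4 leaves GA3OX1 had 6.85 and 4.59 CPM with ABA against 13.1 and 12.8 CPM without it, and it fell there by 1.0 on the log2 scale (SE 0.18, edgeR quasi-likelihood test, adjusted p = 0.00144). The fall of GA3OX1 in leaves was therefore also measured with the ABF genes mutated.

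MYB20 (AT1G66230), a MYB transcription factor, had 10.7 and 11.3 CPM with ABA against 6.61 and 5.82 CPM without it in guard cells, and 3.66 and 3.69 CPM against 8.86 and 9.60 CPM in wild-type leaves. In mutant leaves it had 10.3 and 10.02 CPM with ABA against 11.4 and 14.2 CPM without it. The change of -0.18 in log2 units (SE 0.12) did not pass the test (edgeR, adjusted p = 0.286). Under total-count scaling MYB20 was called lower. AT1G66830, a leucine-rich repeat receptor-like kinase, lay closest to the limits, with ratios of 1.53 in guard cells and 0.621 in wild-type leaves. Its mutant leaf libraries held 17.3 and 16.8 CPM with ABA against 21.3 and 24.2 CPM without it (log2 fold change -0.26, SE 0.09, edgeR adjusted p = 0.0506). It passed the test under RLE scaling (-0.27) and total-count scaling (-0.42), and without replicate 1 of the mutant control (-0.35). A share of 0.246 of its exon bases lies under the locus AT1G66820. Just outside the limits were AT1G48460, with 1.47 in guard cells and 0.589 in leaves, and RPL23AA, a ribosomal protein gene, with 1.80 and 0.689.

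The 36 genes of the larger set had a median log2 ratio of -0.94 in guard cells (-2.05 to -0.59) and 1.07 in wild-type leaves (0.59 to 2.31). Nearest to the limits from inside were TCH4 with 0.664 in guard cells and AT3G07705 with 1.505 in leaves. UGT78D2, a flavonoid glucosyltransferase gene with 0.676 in guard cells and 1.64 in leaves, and FAO3, with 0.188 and 1.49, were just outside.

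**Figure D2:**
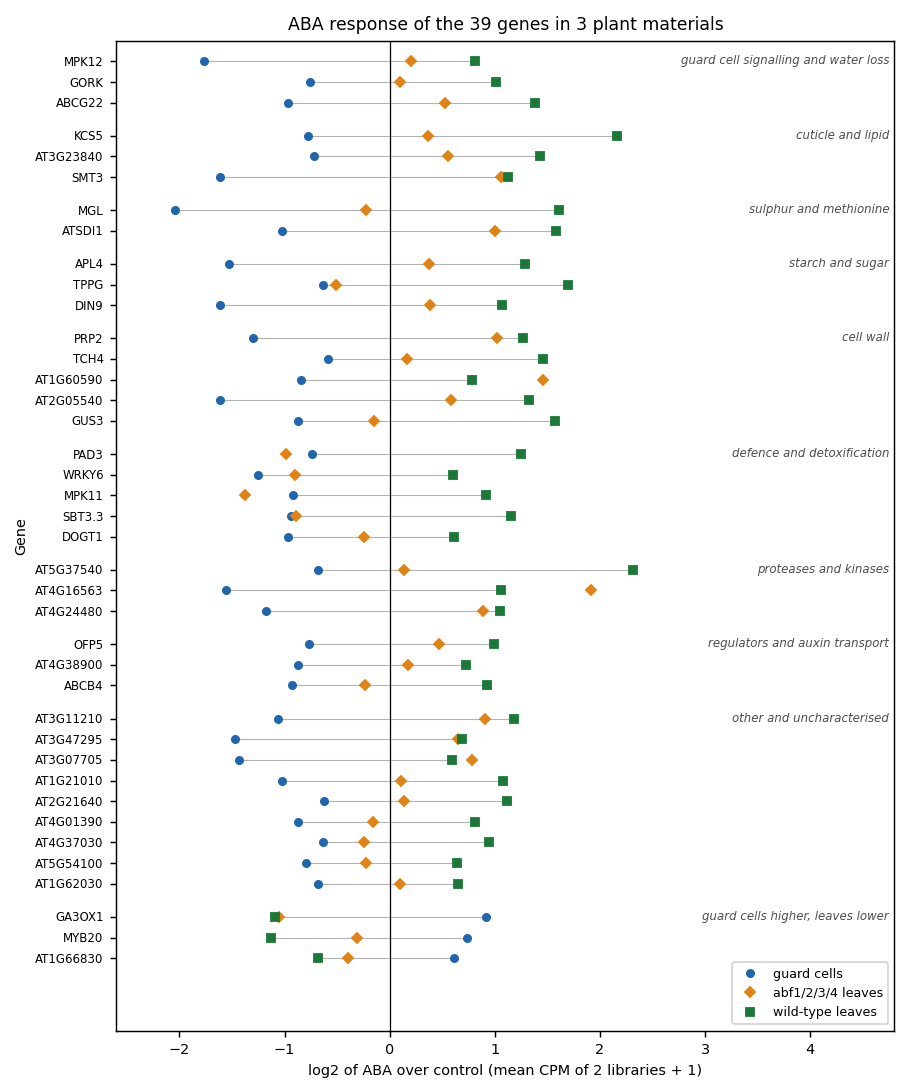
Rows are the 39 genes grouped by role; the horizontal axis is the log2 ratio of ABA over control from the mean CPM of 2 libraries plus 1 in guard cells (circles), abf1/2/3/4 leaves (diamonds) and wild-type leaves (squares). In 27 of the 36 genes lower in guard cells the mutant leaf value is under 50% of the wild-type leaf value, and in 3, AT4G16563, AT1G60590 and AT3G07705, it is at or above it. The rule chose these genes for high wild-type leaf ratios, and the same count was not made for other loci.

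The set held 3 genes with a place in stomatal control and water loss. MPK12 (AT2G46070, chr2:18945937-18948067), a MAP kinase known mainly from guard cells, where it acts in ABA and carbon dioxide signalling, had 45.3 and 54.8 CPM with ABA against 176 and 169 CPM without it in guard cells. In wild-type leaves it had 26.1 and 22.5 CPM with ABA against 12.4 and 14.5 CPM without it. GORK (AT5G37500, chr5:14889245-14895233), the outward potassium channel through which guard cells lose potassium during closure, had 44.7 and 51.9 CPM with ABA against 82.9 and 82.3 CPM without it in guard cells. In leaves GORK had 15.9 and 17.9 CPM with ABA against 6.97 and 8.83 CPM without it, so the leaf libraries stayed under every guard cell library. ABCG22 (AT5G06530, chr5:1989650-1994961), an ABC transporter whose loss increases transpiration, had 99.5 and 91.8 CPM with ABA against 204 and 172 CPM without it in guard cells. In leaves its values were 107 and 93.6 CPM with ABA against 42.0 and 33.9 CPM without it, so with ABA both materials held about the same share of reads.

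In mutant leaves ABCG22 had 43.8 and 43.5 CPM with ABA against 31.6 and 28.3 CPM without it, and rose there by a log2 value of 0.70 (SE 0.12; adjusted p by edgeR = 0.00119). MPK12 had 12.9 and 12.7 CPM against 11.3 and 10.7 CPM there, and rose by 0.37 (SE 0.13, edgeR adjusted p = 0.0434). That call was lost when any 1 of the 4 mutant libraries was left out (0.34 to 0.41) and under total-count scaling (0.22). GORK had 21.7 and 18.9 CPM with ABA against 18.6 and 19.3 CPM without it in mutant leaves, which overlap (log2 fold change 0.26, SE 0.12, edgeR adjusted p = 0.129). Both mutant groups of GORK were above both wild-type leaf groups. Of the 10 other guard cell markers, all tested, 3 were called higher and 7 lower with ABA in guard cells, and 5 higher and 5 lower in wild-type leaves. MYB60, a guard cell factor of stomatal opening, fell in both materials, to 7.12 and 6.29 CPM against 163 and 167 CPM in guard cells and to 1.43 and 1.74 CPM against 14 and 15.7 CPM in leaves. The rise of the summed markers in wild-type leaves came from 1 gene, CYP86A2, a fatty acid hydroxylase of the cuticle, which had 728 and 873 CPM with ABA against 306 and 238 CPM without it. The other 11 markers summed to 557 and 560 CPM with ABA against 1872 and 1793 CPM without it in guard cells, and to 133 and 145 CPM against 145 and 168 CPM in wild-type leaves. These 11 still include MPK12 and GORK, so the sums are not independent of them. The 10 markers other than MPK12 and GORK, CYP86A2 included, summed to 1410 and 1337 CPM with ABA against 2183 and 2061 CPM without it in guard cells. In wild-type leaves those 10 summed to 819.3 and 977.5 CPM against 431.5 and 382.9 CPM. CYP86A2 was singled out after its values were seen. The part of marker levels in the values of MPK12, GORK and ABCG22 was not tested.

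The 3 cuticle and lipid genes of the set were called higher in mutant leaves, as were 67.4% of leaf-induced loci and 18.9% of all. These 3 genes were grouped after their values were seen. KCS5 (AT1G25450, chr1:8938387-8940613), a condensing enzyme that lengthens fatty acids for wax, had 85.5 and 86.7 CPM with ABA against 152 and 144 CPM without it in guard cells. In wild-type leaves it had 55.5 and 73.7 CPM with ABA against 14.2 and 13.2 CPM without it, the second largest leaf ratio of the set at 4.47. In mutant leaves KCS5 had only 16.9 and 20.6 CPM with ABA against 14.9 and 13.7 CPM without it. That smaller difference was called (log2 fold change 0.53, SE 0.13, edgeR adjusted p = 0.00864), but not without replicate 2 of the mutant ABA group (0.41) or under total-count scaling (0.38). SMT3 (AT1G76090, chr1:28550202-28551836), a sterol methyltransferase, had 13.3 and 11.9 CPM with ABA against 40.8 and 40.3 CPM without it in guard cells, and 27.4 and 20.1 CPM against 10.9 and 9.76 CPM in wild-type leaves. Its mutant values were 16.2 and 12.6 CPM with ABA against 6.78 and 6.00 CPM without it, a rise of 1.34 (SE 0.18, edgeR adjusted p = 0.000219), and its CPM ratio of 2.08 in mutant leaves was close to the 2.18 of wild-type leaves. AT3G23840, annotated as an acyltransferase of the HXXXD type, rose by 0.75 in mutant leaves (SE 0.14, edgeR adjusted p = 0.00231), with ratios of 0.605 in guard cells and 2.69 in wild-type leaves.

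The summed level of epidermal markers was higher with ABA in both materials, but single markers went both ways. Of the 11 markers, 7 were called higher and 3 lower in guard cells, where the 3 genes were lower. In wild-type leaves 9 were called higher and 1 lower, and in mutant leaves 8 higher and 0 lower. The 11 pavement epidermis markers that could be matched summed to 3694 and 3794 CPM with ABA against 2803 and 2597 CPM without it in guard cell preparations. In wild-type leaves they summed to 3290 and 3614 CPM with ABA against 1143 and 1104 CPM without it, and in mutant leaves to 1546 and 1763 CPM against 1115 and 935 CPM. The higher sum in guard cells lay mostly in LTP1, a lipid transfer protein gene: without it, the other 10 markers summed to 2565 and 2628 CPM with ABA against 2553 and 2351 CPM without it there, and to 2293 and 2538 CPM against 886 and 842 CPM in wild-type leaves. No marker of the list was at 0 in any library. Many of these genes make cuticle, and their part in the values of the 3 genes was not tested.

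Sulphur and methionine metabolism contributed MGL and ATSDI1. MGL (AT1G64660, chr1:24028830-24030780), methionine gamma-lyase, breaks methionine down and had the widest gap of the set between guard cells and leaves. It had 11.8 and 15.1 CPM with ABA against 61.5 and 56.0 CPM without it in guard cells, a ratio of 0.242. In wild-type leaves it had 22.4 and 24.7 CPM with ABA against 7.05 and 7.08 CPM without it, a ratio of 3.04. With ABA the order of the materials was therefore turned round, with leaves above guard cells. In mutant leaves MGL had 4.56 and 4.67 CPM with ABA against 5.43 and 5.69 CPM without it (log2 fold change -0.11, SE 0.13, edgeR adjusted p = 0.544), so no rise was detected there. The matches to ACGTG before MGL are shown above, and their part in its response was not tested. ATSDI1, homologous to a wheat gene induced by sulphate shortage, had 4.74 and 2.73 CPM with ABA against 11.1 and 6.15 CPM without it in guard cells and 8.90 and 5.67 CPM against 1.97 and 1.56 CPM in wild-type leaves. It rose by 1.32 in mutant leaves (SE 0.43, edgeR adjusted p = 0.0347), where it had 7.16 and 9.37 CPM with ABA against 5.32 and 1.93 CPM without it. The call was lost without replicate 2 of the mutant control (0.78), without replicate 1 (1.5) or replicate 2 (1.15) of the mutant ABA group, and under total-count scaling (1.17).

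Of the 22 other genes on a list for methionine, S-adenosylmethionine and branched-chain amino acids, 7 were called higher and 9 lower with ABA in guard cells, 5 higher and 3 lower in mutant leaves, and 7 higher and 10 lower in wild-type leaves. Only BCAT-1, a branched-chain aminotransferase, was called lower in guard cells and higher in wild-type leaves (log2 CPM ratios -1.89 and 0.46). The related BCAT4 was called higher in guard cells and lower in wild-type leaves, at 0.29 and -0.81.

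Starch and sugar genes of the set were APL4, TPPG and DIN9. APL4 (AT2G21590), a large subunit of ADP-glucose pyrophosphorylase in starch synthesis, had 17.9 and 21.1 CPM with ABA against 57.0 and 58.9 CPM without it in guard cells, and 17.5 and 12.5 CPM against 4.71 and 6.41 CPM in wild-type leaves. Its mutant leaf libraries did not overlap (7.38 and 6.41 CPM with ABA against 5.73 and 4.45 CPM), and the difference of 0.60 in log2 (SE 0.22) missed the threshold (edgeR adjusted p = 0.051). APL4 passed under RLE scaling and with DESeq2 (0.59), and without replicate 1 of the mutant control (0.80). TPPG (AT4G22590), a trehalose 6-phosphate phosphatase, had 38.7 and 41.8 CPM with ABA against 64.6 and 61.2 CPM without it in guard cells and 40.5 and 34.5 CPM against 10.99 and 10.8 CPM in wild-type leaves. In mutant leaves TPPG had 12.9 and 12.4 CPM with ABA against 15.0 and 22.0 CPM without it; the difference of -0.39 in log2 (SE 0.15) was not called (edgeR adjusted p = 0.0745), but was called lower without replicate 1 of the mutant control (-0.64). DIN9, a phosphomannose isomerase of ascorbate synthesis, rose by 0.65 in mutant leaves (SE 0.14, edgeR adjusted p = 0.00514). Its guard cell libraries held 4.21 and 4.47 CPM with ABA against 16.0 and 14.6 CPM without it, and its wild-type leaf libraries 6.13 and 7.37 CPM against 2.5 and 2.87 CPM. None of the 21 tested genes of a broader starch and sugar list was called lower in guard cells and higher in wild-type leaves: 10 were called higher and 6 lower in guard cells, 12 higher and 1 lower in mutant leaves, and 9 higher and 6 lower in wild-type leaves.

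**Figure D3:**
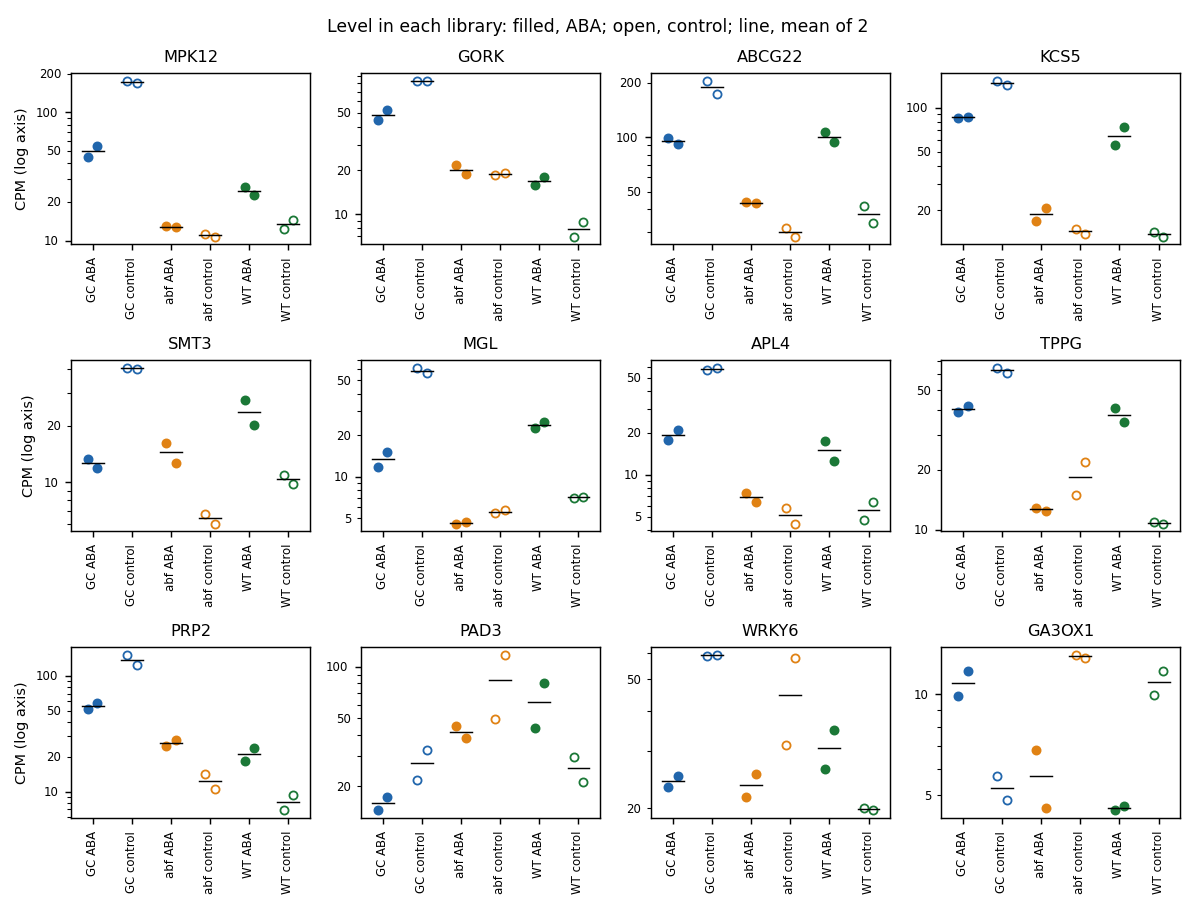
CPM on a log axis for 12 genes, with 1 point per library and a line at the mean of 2; filled points are ABA, open points control, and GC stands for guard cells, abf for abf1/2/3/4 leaves and WT for wild-type leaves. In the first 11 panels guard cells are lower and wild-type leaves higher with ABA, in GA3OX1 the reverse; mutant controls of PAD3 and WRKY6 lie far apart, at 49.3 and 118 CPM and at 31.4 and 58.1 CPM.

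Of the 5 cell wall genes, grouped after their values were seen, 2 were called higher in mutant leaves and 3 were not called. The share called higher there was 67.4% of leaf-induced loci and 18.9% of all. PRP2 (AT2G21140, chr2:9060561-9062093), a proline-rich wall protein, had 51.9 and 58.5 CPM with ABA against 151 and 123 CPM without it in guard cells, and 18.4 and 23.6 CPM against 6.87 and 9.39 CPM in wild-type leaves. In mutant leaves PRP2 had 24.5 and 27.7 CPM with ABA against 14.2 and 10.5 CPM without it, a rise of 1.23 (SE 0.18, edgeR adjusted p = 0.000515). AT1G60590, annotated as pectin lyase-like, rose by 1.82 in mutant leaves (SE 0.38, edgeR adjusted p = 0.00358), with a CPM ratio of 2.74 there against 1.72 in wild-type leaves, and lay between 2.17 and 12.9 CPM in all libraries. TCH4, a touch-induced xyloglucan endotransglucosylase, had 29.7 and 40.3 CPM with ABA against 26.6 and 35.7 CPM without it in mutant leaves, which overlap (0.31, SE 0.22, edgeR adjusted p = 0.313). AT2G05540, a glycine-rich protein gene, had 79.8 and 98.4 CPM with ABA against 295 and 255 CPM without it in guard cells and 35.5 and 47.7 CPM against 29.7 and 25.2 CPM in mutant leaves (0.74, SE 0.29, edgeR adjusted p = 0.0663); it was called with only the mutant libraries fitted (0.71). GUS3, a glucuronidase, had 3.39 and 3.23 CPM with ABA against 3.43 and 4.14 CPM without it in mutant leaves (-0.03, SE 0.14, edgeR adjusted p = 0.919), against 11.3 and 13.0 CPM with ABA in wild-type leaves.

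On a list of 20 wounding and touch genes, which also holds TCH4, the summed level was 2483 and 2273 CPM with ABA against 927 and 924 CPM without it in guard cells. It was 9222 and 11370 CPM against 4610 and 3550 CPM in mutant leaves, and 10160 and 12830 CPM against 3241 and 2811 CPM in wild-type leaves, with none at 0. These sums were carried by the jasmonate genes LOX2, VSP1 and VSP2, singled out after their values were seen; the other 17 genes summed to 621 and 554 CPM with ABA against 651 and 683 CPM without it in guard cells, and to 1067 and 1222 CPM against 1205 and 1076 CPM in wild-type leaves. The touch genes TCH2 and TCH3 were lower with ABA in both materials: TCH2 had 20.8 and 16.7 CPM against 42.7 and 38.0 CPM in guard cells and 11.1 and 9.30 CPM against 14.5 and 20.3 CPM in wild-type leaves, and TCH3 had 25.4 and 24.1 CPM against 170 and 176 CPM and 62.1 and 54.9 CPM against 283 and 272 CPM. Of the 19 listed genes other than TCH4, 9 were called higher and 6 lower in guard cells, 7 higher and 6 lower in mutant leaves, and 10 higher and 3 lower in wild-type leaves. Of the other 20 tested genes of a cell wall loosening list, 7 were called higher and 8 lower in guard cells, 5 higher and 6 lower in mutant leaves, and 7 higher and 10 lower in wild-type leaves, and none was called lower in guard cells and higher in wild-type leaves.

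Of the 5 defence and detoxification genes, grouped after their values were seen, none was called higher in mutant leaves, 2 were called lower and 3 were not called. Over all tested loci 18.9% were called higher and 15.5% lower. In each of the 5 genes, replicate 2 of the mutant control was above replicate 1. PAD3 (AT3G26830, chr3:9887917-9889791), the cytochrome P450 of the last step to the antimicrobial camalexin, had 14.4 and 17.36 CPM with ABA against 21.8 and 32.6 CPM without it in guard cells. In wild-type leaves it had 44.0 and 79.9 CPM with ABA against 29.7 and 21.1 CPM without it. In mutant leaves PAD3 had 45.0 and 38.2 CPM with ABA against 49.3 and 118 CPM without it (-0.85, SE 0.37, edgeR adjusted p = 0.104). Replicate 2 of that control stood far above the other 3 mutant libraries, and without replicate 1 the fall was called (-1.34). WRKY6, a WRKY transcription factor, had 23.3 and 25.2 CPM with ABA against 59.0 and 59.5 CPM without it in guard cells, and 26.5 and 34.9 CPM against 20.1 and 19.7 CPM in wild-type leaves. It had 21.7 and 25.5 CPM against 31.4 and 58.1 CPM in mutant leaves, and fell by 0.78 there (SE 0.22, edgeR adjusted p = 0.0207). MPK11, a MAP kinase, had 8.57 and 9.98 CPM against 9.81 and 41.4 CPM in mutant leaves and fell by 1.32 (SE 0.46, edgeR adjusted p = 0.045).

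Both falls rested on replicate 2 of the mutant control. Without it, the log2 fold change was -0.26 for WRKY6 and 0.07 for MPK11, and neither was called. Nor was either called without replicate 1 (-0.68 and -1.22) or replicate 2 (-0.87 and -1.40) of the mutant ABA group. SBT3.3, a subtilase known from defence priming, had 7.64 and 8.61 CPM with ABA against 10.1 and 21.7 CPM without it in mutant leaves (-0.82, SE 0.36, edgeR adjusted p = 0.103); without replicate 1 of the control its fall was called (-1.27). DOGT1, a glucosyltransferase that acts on a fungal toxin and on brassinosteroids, was not called in mutant leaves (log2 fold change -0.09, SE 0.19, edgeR adjusted p = 0.75). Of 20 other genes on a salicylic acid and defence list, 0 were called higher and 7 lower with ABA in guard cells, 1 higher and 2 lower in mutant leaves, and 5 higher and 2 lower in wild-type leaves; none had both opposite calls.

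A pair of genes annotated as aspartyl proteases differed in mutant leaves. AT5G37540 had the largest leaf ratio of the set, 4.97, with 27.9 and 29.5 CPM with ABA against 4.79 and 5.15 CPM without it in wild-type leaves, while guard cells had 34.1 and 34.2 CPM against 56.0 and 55.3 CPM. In mutant leaves it had 13.2 and 14.5 CPM against 8.46 and 16.5 CPM, which overlap (0.30, SE 0.22, edgeR adjusted p = 0.316), and the value was 0.86 and called without replicate 2 of the control and -0.11 without replicate 1. AT4G16563 had 44.0 and 42.2 CPM with ABA against 13.2 and 8.20 CPM without it in mutant leaves, a rise of 2.16 (SE 0.36, edgeR adjusted p = 0.00106), the largest of the 39 genes. Its wild-type leaf libraries held 24.4 and 12.4 CPM against 9.74 and 6.89 CPM, so the mutant libraries with ABA were above all wild-type leaf ones. AT4G24480, annotated as a protein kinase, had 44.7 and 49.8 CPM with ABA against 115 and 102 CPM without it in guard cells and 18.3 and 17.3 CPM against 7.75 and 8.48 CPM in wild-type leaves. Its mutant values of 17.3 and 17.7 CPM against 9.55 and 8.43 CPM were close to those of wild-type leaves (rise of 1.11, SE 0.10, edgeR adjusted p = 2.27e-05).

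Among the regulators, OFP5, an ovate family protein, rose by 0.70 in mutant leaves (SE 0.11, edgeR adjusted p = 0.000842). A share of 0.752 of its exon bases lies under loci of the opposite strand, AT4G18840 and AT4G06850, and reads of these loci cannot be told apart where counting ignored strand. AT4G38900, a bZIP transcription factor outside the ABF group, rose by 0.33 (SE 0.08, edgeR adjusted p = 0.00704), but was not called without replicate 1 of the mutant ABA group (0.29) or under total-count scaling (0.18). ABCB4, an auxin transporter, had 241 and 200 CPM with ABA against 247 and 272 CPM without it in mutant leaves (-0.08, SE 0.18, edgeR adjusted p = 0.766). Its wild-type leaves held 188 and 273 CPM against 120 and 122 CPM, so the mutant control was already at the level of treated wild-type leaves.

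The remaining 9 genes have no role given here, and 3 of them were called higher in mutant leaves. That call was made for 67.4% of leaf-induced loci and 18.9% of all. AT3G11210, an SGNH-type esterase, rose by 1.22 (SE 0.20, edgeR adjusted p = 0.000897). AT3G47295, a gene of unknown function, rose by 0.84 (SE 0.16, edgeR adjusted p = 0.002), and AT3G07705, a noncoding RNA annotated as its natural antisense transcript, by 1.01 (SE 0.19, edgeR adjusted p = 0.00172). These share 0.517 and 0.638 of their exon bases with loci on the other strand, so reads of one cannot be told from reads of the other where counting ignored strand. They were also the pair with the highest guard cell to leaf ratio with ABA, 3.26 and 3.20. Of the 6 not called, AT2G21640, known as a marker of oxidative stress, had 42.0 and 34.8 CPM with ABA against 33.7 and 36.05 CPM without it in mutant leaves (0.30, SE 0.19, edgeR adjusted p = 0.258). The others, AT1G21010, AT4G01390, AT4G37030, AT5G54100 and AT1G62030, had log2 fold changes of -0.09 to 0.30; AT1G21010 was called higher without replicate 2 of the mutant control (0.48).

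**Figure D4:**
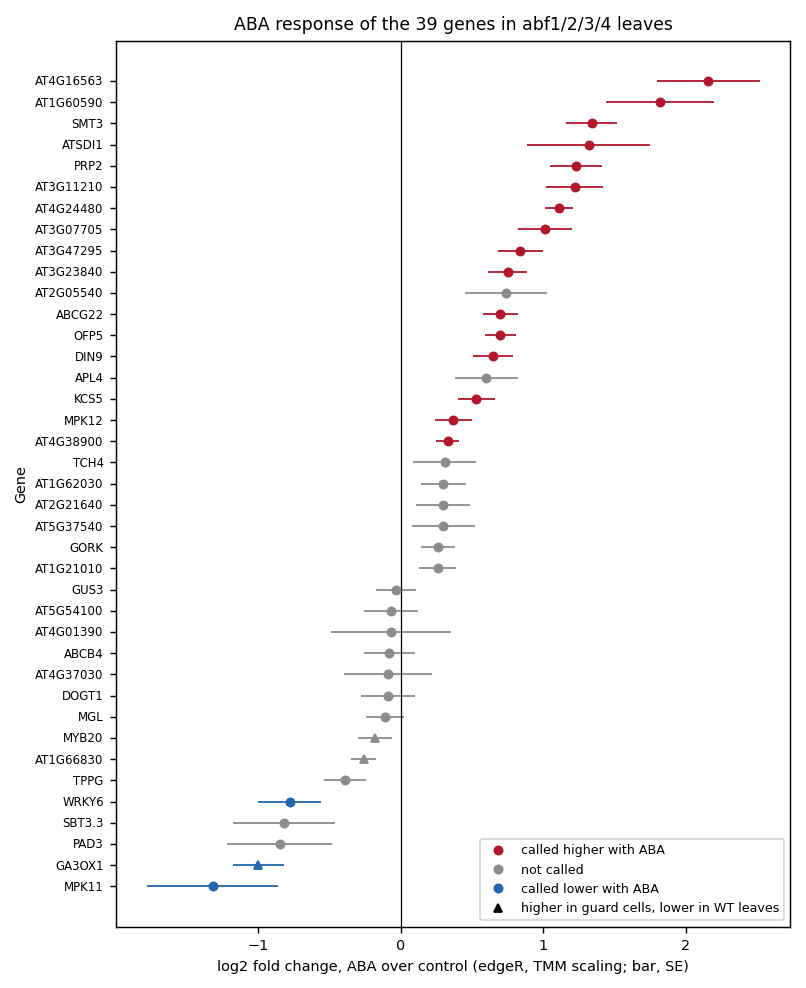
Log2 fold change of ABA over control in abf1/2/3/4 leaves for the 39 genes (horizontal axis, edgeR with TMM scaling, bars SE), sorted by size; red is called higher, blue called lower and grey not called, and triangles are the 3 genes higher in guard cells. Values run from -1.32 in MPK11 to 2.16 in AT4G16563, and 16 circles are red.

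Taking the 36 genes as a set, all passed the low-count filter in the fit of 22341 loci, and 16 (44.4%) were called higher with ABA in mutant leaves, 2 (5.56%) lower and 18 not called. With only the mutant libraries fitted, 14 of the 36 were called higher and 0 lower. Among the 2309 loci with a ratio of at least 1.5 in wild-type leaves, a group that includes the 36, 67.4% were called higher and 1.86% lower in mutant leaves. For the 1652 loci at or above 1.5 in both wild-type materials the shares were 72.5% and 2.18%. The median log2 fold change in mutant leaves was 0.32 for the 36 genes, 0.53 for the leaf-induced loci, 0.64 for those induced in both materials and 0.01 for all loci. Whether the 36 differed from other leaf-induced loci was not tested.

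By libraries, 18 of the 36 genes had both mutant ABA libraries above both controls, 7 had both below and 11 overlapped; over all tested loci 21.9% were above and 44.9% below. Of the 35 protein-coding genes of the set, 10 held ACGTG in the 250 bases, and 6 of these were called higher in mutant leaves and 0 lower. Of the 25 without it, 9 were called higher and 2 lower. Among all leaf-induced loci, with or without ACGTG, 67.4% were called higher and 1.86% lower. Calls of other loci were not split by ACGTG, and a link between it and the mutant response was not tested. For the 3 genes of the other direction, all mutant ABA libraries were below the controls and only GA3OX1 was called. Of 3937 loci with a ratio of at most 0.67 in wild-type leaves, 46.6% were called lower and 5.28% higher in the mutant. Under total-count scaling, which moved the median of all loci by -0.15, 12 of the 36 genes were called higher and 3 lower. All 3 genes of the other direction were called lower under that scaling.

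Mutant and wild-type leaf levels differed in both states. Without ABA, the mutant level was at least 1.5 times the wild-type level in 15 of the 36 genes and at most 0.67 times in 2, with a median ratio of 1.35; for all 15088 loci the shares were 7.27% and 1.67% and the median 1.07. With ABA, 3 genes were at least 1.5 times and 12 at most 0.67 times the wild-type level, with a median of 0.741, against 20.6%, 13% and 1.08 for all loci. MPK11, PAD3, SBT3.3, WRKY6, DOGT1, GORK and ABCB4 were among those with raised mutant controls; DOGT1 had 91.0 and 115 CPM in mutant controls against 44.2 and 42.6 CPM in wild-type controls. Since low wild-type controls and high wild-type ABA levels helped choose the genes, these ratios are a description.

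**Figure D5:**
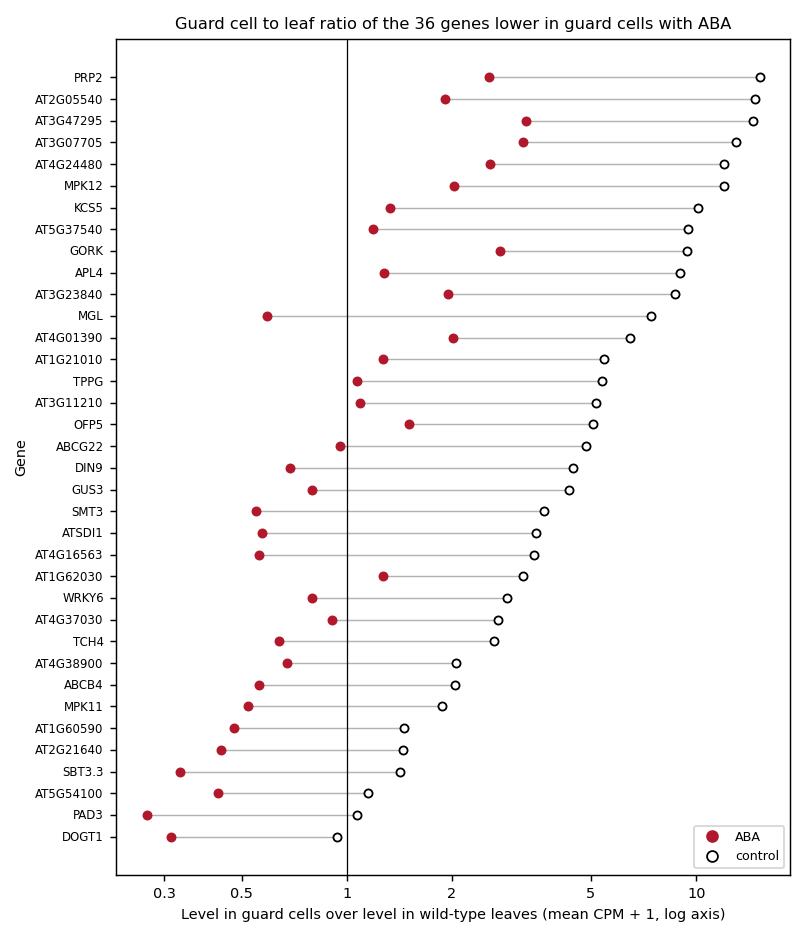
For each of the 36 genes lower in guard cells with ABA, the level in guard cells over that in wild-type leaves (mean CPM plus 1, log axis) with ABA (filled) and in the control (open). All filled points lie left of their open points; 35 open points and 17 filled points lie above 1.

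Without ABA, most of the 36 genes had higher levels in guard cell preparations than in leaves. In the control state 35 had a higher level in guard cells than in wild-type leaves, 29 at least 2-fold and 17 at least 5-fold, with a median ratio of 4.64 against 1.16 for all 15088 loci, 11.2% of which reached 2-fold. Marker sums for guard cells, which include MPK12 and GORK, were 2442 and 2312 CPM in guard cell controls against 451 and 406 CPM in leaf controls. Those for vasculature were 10700 and 10560 CPM against 1737 and 1679 CPM, and those for pavement epidermis 2803 and 2597 CPM against 1143 and 1104 CPM. Each sum was higher in the preparations, so the higher levels of the genes cannot be assigned to one of these cell types. PRP2 had the highest control ratio, 15.2, and AT2G05540, AT3G47295, AT3G07705, MPK12, AT4G24480 and KCS5 also exceeded 10. With ABA the median was 0.932, against 1.05 for all loci, 17 genes were still higher in guard cells, and 13 lay between 0.67 and 1.5. The distance between the materials became smaller in 29 genes. MGL had the widest difference, 0.589 with ABA against 7.41 in the control. PAD3, at 0.268 with ABA against 1.07 in the control, and DOGT1, at 0.314 against 0.939, were near equal levels in the controls. Both ratios of a gene follow partly from the rule, since a fall in guard cells and a rise in leaves must lower the guard cell to leaf ratio.

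Genes of the textbook ABA response did not share this pattern. All 25 matched genes of an ABA response list were called higher in guard cells and in wild-type leaves (median log2 fold changes 4.73 and 5.01, edgeR), 20 were called higher and 1 lower in mutant leaves (median 1.75), and none of the 39 genes is on the list. Among 18 other genes for stomatal ion channels and transport, 17 were tested, and 6 were called higher and 10 lower in guard cells, 7 higher and 4 lower in mutant leaves and 8 higher and 6 lower in wild-type leaves. OZS1 (SLAC1), the anion channel of stomatal closure, was called lower in guard cells and higher in wild-type leaves, with 31.3 and 36.7 CPM with ABA against 97.6 and 93.7 CPM without it in guard cells and 10.9 and 11.6 CPM against 6.55 and 8.41 CPM in wild-type leaves. It missed the rule by its leaf ratio under column-sum scaling and met the rule under TMM and RLE scaling. KCS10, an epidermal condensing enzyme, also had opposite calls (log2 CPM ratios -0.56 and 1.09), and SCRM (ICE1), a factor of stomatal development, did so at -1.05 in guard cells and 0.18 in wild-type leaves. Single markers were named here after their values were seen.

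How many genes met the rule depended on its settings. Stricter limits of 2 and 0.5 left 0 genes higher in guard cells and 11 lower, among them MGL, SMT3, PRP2, APL4 and ATSDI1. Requiring both replicate numbers to meet the limits alone left 2 and 22. TMM scaling gave 7 and 33 genes and RLE scaling 5 and 42, and both dropped GORK, KCS5, TPPG, PAD3, TCH4 and OFP5. MGL, SMT3, PRP2, APL4, AT3G11210, AT4G24480 and AT1G21010 met it under all 16 alternatives.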

How the data were processed

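The authors deposited 1 table of raw counts of reads per locus, 1 column per library, with whole numbers and unequal totals. Per the submitters' processing notes, it was made with Trim Galore 0.6.5, cutadapt, FastQC, SAMtools, featureCounts and DESeq2 1.26.0 on TAIR10. The aligner, the strand setting and the annotation version are not given in the sources used here. The table has no coordinates; those printed come from RefSeq TAIR10.1, which matched 36632 identifiers, all 39 genes among them, by locus name.

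CPM and ratios used column totals and a pseudocount of 1. Tests used edgeR 4.0.16 in R 4.3.3 (TMM scaling, filterByExpr with its minimum of 10 counts, quasi-likelihood F-test, two-sided): 1 fit of 6 group means over 12 libraries without a replicate term, 6 residual degrees of freedom, Benjamini-Hochberg adjustment over 22341 loci and calls at an adjusted p under 0.05. Replicates are biological, per the labels. Depth was 25294558 to 47116819 counts per library, and the common biological coefficient of variation was 8.98%. In simulated counts for the mutant comparison (22204 loci) 61.2%, 92.5% and 98.5% of loci changed 1.5-fold, 2-fold and 4-fold were recovered, with 10 false calls. The simulation gave every locus the same spread and changed few loci, none with very low counts. It did not hold the wide gap between the mutant control replicates, so these figures may not carry over to the real libraries.

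The genes and the 17 gene lists were chosen with earlier results of these data known. The lists held 325 names, of which 305 matched 1 locus; 3 symbols that the reference gives to other genes were left out. Named were up to 14 genes of each direction with the widest difference in log2 ratio (all 3 of the smaller), those on a list, the called genes with the largest changes, and those at the limits; all others were named by role after their values were seen, as were the role groups. Alternatives were other scalings (RLE, total count), filters, pseudocounts, limits, DESeq2 1.42.0, a replicate block and leaving out each library.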

Additional observations from a re-analysis of the deposited data

Results flagged for a closer look

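For 7 genes, every wild-type leaf library with ABA was above the controls, while every abf1/2/3/4 leaf library with ABA was below its controls. Over all tested loci, 44.9% had both mutant ABA libraries below both controls. The rise in wild-type leaves was part of how the genes were chosen, and the share of all loci with both patterns was not counted. The log2 fold changes in mutant leaves were -0.39 for TPPG, -0.85 for PAD3, -0.82 for SBT3.3, -0.78 for WRKY6, -0.11 for MGL, -0.08 for ABCB4 and -0.03 for GUS3. This difference between the genotypes was not tested, because the wild-type leaf libraries helped choose these genes. Of the 7, only WRKY6 was called in the mutant (edgeR, adjusted p = 0.0207), and that call was lost without replicate 2 of the mutant control.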

How the results depend on the processing

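The number of genes higher in guard cells and lower in wild-type leaves, 3 as reported, was 7 with TMM scaling, 5 with RLE scaling, 1 with a pseudocount of 5, 0 with limits of 2 and 0.5, and 2 to 6 with 1 library left out. The 36 genes of the other direction became 11 with limits of 2 and 0.5, 22 where both replicate numbers had to meet the limits, and 35 to 43 with 1 library left out; the other settings gave 26 to 44. Leaving out genes that share over 25% of their exon bases, an alternative added after seeing the data, gave 33. The genes left out by it, OFP5, AT3G47295 and AT3G07705, were all among those called higher in mutant leaves. Of the 36, the 16 called higher in mutant leaves became 8 with a minimum absolute log2 fold change of 1, 15 with the replicate block, 12 with total-count scaling and 13 to 16 with 1 library left out. The 2 called lower became 5 without a filter, 0 with only the mutant libraries, 1 with the replicate block, 1 with DESeq2, 0 at an adjusted p under 0.01, 1 with the minimum fold, and 0 to 5 with 1 library left out. For the 3 genes of the first direction, the 1 called lower became 2 with RLE scaling, 3 with total-count scaling, 2 with a minimum mean of 50 counts, 2 with the replicate block, and 1 to 2 with 1 library left out. The causes were not tested. Of 19 genes called in mutant leaves, 8 kept the call under all 13 alternatives and 13 under all but the minimum fold.

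Same-numbered libraries did not deviate together (r of -0.154 to 0.187 between groups over 18638 loci, 0.124 between the mutant groups), so the numbers were not taken as pairs; under the replicate block MPK12 (0.37) and MPK11 (-1.21) lost their calls. With 1 mutant library left out, the log2 fold change in mutant leaves spanned 0 for AT5G37540 (-0.11 to 0.86), MPK11 (-2.02 to 0.07), AT4G01390 (-0.57 to 0.64), GUS3 (-0.16 to 0.12), ABCB4 (-0.24 to 0.07), DOGT1 (-0.25 to 0.10), AT4G37030 (-0.62 to 0.26) and AT5G54100 (-0.31 to 0.13), of which MPK11 alone was called.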
